A study of Arabidopsis thaliana with 24 samples.

Results

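Roots of wild-type Arabidopsis thaliana (Col-0) were compared after 3 h and after 1 h in 150 mM NaCl, on every probe set of the array except the manufacturer's controls. These 2 groups hold 6 of the study's 24 arrays, 3 at 3 h and 3 at 1 h, and were chosen by the array titles and not by any measured value. The other arrays, also 3 per group, came from untreated wild-type roots, from wild-type roots after 6 h in salt, and from untreated, 1 h, 3 h and 6 h roots of the bzip1/bzip53 double mutant, which the labels call a knockout and which is named for a pair of basic leucine zipper (bZIP) transcription factors. All plants were 6 weeks old and grown in hydroponic culture under short days, and salt-treated roots of both genotypes were collected at 1 time of day, shortly before the lights went off, so that 3 h roots had received salt earlier in the day than 1 h roots. The tissue label speaks of seedling roots, and the age of 6 weeks was taken from the age label. RNA was read on the Affymetrix ATH1 array, on which a set of short probes reports each gene, and each value is a log2 level computed by robust multi-array averaging (RMA). Replicates are labelled biological, but nothing says how plants or culture vessels were divided among them, and a p-value here reflects only how far such arrays differ from one another. The array signal comes from whole roots, in which fewer cells of a type and less RNA per cell cannot be told apart.

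Salt reaches root cells first as a loss of water potential and then as an inflow of sodium. Arabidopsis roots answer with abscisic acid signalling, with protective proteins such as the late embryogenesis abundant (LEA) proteins and dehydrins, and with a temporary slowing of growth, in which auxin, cell division and the loosening of cell walls take part. Early transcripts encode mostly signalling proteins and transcription factors, and transcripts for protection, detoxification and metabolism follow. bZIP1 and bZIP53 bind promoters of metabolic genes and are best known for their part in responses to low energy.

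The 6 arrays had nearly the same median level, 6.62 to 6.64. Pearson's r over all probe sets lay between 0.9901 and 0.996 for arrays of the same group and between 0.9807 and 0.9916 across the groups. The third array at 1 h stood nearest to the 3 h group. It correlated at 0.9916 with the third array at 3 h, against 0.9901 and 0.9922 with its own group, and the results below are given without it where it moved them. The lowest array level of the root hair expansin EXPA7, of EXPA18 and of SCN1, which restricts where root hairs form, was 6.24, 5.37 and 9.43. The manufacturer's 27 probe sets for bacterial transcripts lay between 2.85 and 4.65 at 3 h and between 2.85 and 4.56 at 1 h, and a level under 5 was therefore treated as close to background. Of all probe sets tested, 33.0% had a 1 h mean under 5. The difference between the 3′ and 5′ probe sets of actin, a measure of RNA integrity, was 0.76 to 0.88 at 3 h and 0.69 to 0.85 at 1 h, and the groups overlapped.

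Between 1 h and 3 h, limma called 1903 of 22746 probe sets (8.37%) at an adjusted p under 0.05, 992 of them higher at 3 h (4.36% of those tested) and 911 lower (4.01%). Rises were larger than falls. At least a 2-fold difference was reached by 296 of the higher probe sets and by 19 of the lower ones, and a 4-fold difference by 67 and by 0. The median size was 0.74 log2 units among the higher probe sets and -0.44 among the lower ones, with a median of -0.042 over all probe sets. The 3 h and 1 h arrays did not overlap for 982 of the higher and 879 of the lower probe sets, and for 28.0% of all probe sets tested. The mean level of the higher probe sets was 8.26, 8.17 and 8.05 on the 3 h arrays, against 7.21, 7.17 and 7.36 on the 1 h arrays. The third array at 1 h had the highest level of its group in 525 of the 992 higher probe sets (52.9%), and the lowest in 606 of the 911 lower ones (66.5%). Over all probe sets tested it was the highest in 29.4%. The first and second arrays at 1 h were highest in 23.9% and 23.2% of the higher probe sets, and lowest in 21.0% and 12.5% of the lower ones. Without it the count of calls was 2221, with 1038 higher and 1183 lower. Without the first or second array at 1 h the count was 1046 or 1012, and without the first or second array at 3 h it was 927 or 1141.

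The gene with the largest rise was AT2G41730, which has no described role in the files used here. Its level was 10.31, 10.38 and 10.25 on the 3 h arrays, against 4.80, 4.86 and 5.37 on the 1 h arrays. The 16 largest rises and the 16 largest falls were taken only from called probe sets with no overlap of the 3 h and 1 h arrays. The difference for AT2G41730 was 5.30 ± 0.204 log2 units (SE), 39.45-fold (limma, adjusted p = 9.9e-13). The name of its probe set ends in _x_at, the manufacturer's mark for probes that may also match other transcripts. The LEA family genes AT3G15670 and AT3G02480 rose by 4.05 ± 0.309 and 3.69 ± 0.327. AT3G15670 had 8.73, 8.97 and 8.14 at 3 h, against 4.67, 4.50 and 4.54 at 1 h, so that its 1 h level was close to background and the size of the rise is uncertain. scpl30, a serine carboxypeptidase-like gene, rose by 3.78 ± 0.434 from a similarly low 1 h mean. Of the 16 genes with the largest rises, 7 had a 1 h mean under 5, as did 13.8% of all probe sets called higher.

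A small heat shock protein and a co-chaperone stood near the top. AT5G51440, a small heat shock protein of mitochondria, had 9.29, 9.45 and 9.47 at 3 h, against 5.59, 5.03 and 6.95 at 1 h, a difference of 3.55 ± 0.403 (limma, adjusted p = 9.7e-06). AT1G71000, which encodes a DnaJ-domain co-chaperone, rose by 3.38 ± 0.373. AT2G15780, a cupredoxin family gene, had 9.59, 9.50 and 9.83 at 3 h, against 5.91, 5.99 and 7.35 at 1 h. In these 3 genes the third 1 h array lay above the other 1 h arrays and below every 3 h array, as the choice of genes required. The same array was the highest of its group in 13 of the 16 genes, against 29.4% of all probe sets tested. The ERF family transcription factor AT1G22810 showed this most, with 8.09, 8.38 and 7.36 at 3 h, against 4.66, 4.67 and 7.05 at 1 h. Its rise was 2.48 ± 0.493 with all arrays and 3.28 without the third 1 h array (limma, adjusted p = 0.0029 with all arrays). In a fit of the 6 compared arrays alone its adjusted p was 0.0672.

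Among the other large rises, AT5G43450, a 2-oxoglutarate-dependent oxygenase, rose by 3.13 ± 0.283, and AT2G04050, a MATE family efflux carrier, by 2.94 ± 0.262. AT2G43620, a chitinase family gene, had 10.02, 10.47 and 10.00 at 3 h, against 7.02, 7.25 and 8.42 at 1 h, and rose by 2.60 ± 0.288. AT3G51750 and AT4G16680 rose by 2.60 and 2.56 from 1 h means close to background. With the auxin gene GH3.3, LEA4-5 and BGLU24, described with their families, these complete the 16. Of the 16, 15 were called under each of 13 alternative settings, the exception being AT1G22810. Probe sets without a gene name rose as strongly: 264042_at by 4.04 and 266267_at by 3.66. A single gene name was at hand for 45.4% of the higher and 58.2% of the lower probe sets.

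**Figure D1:**
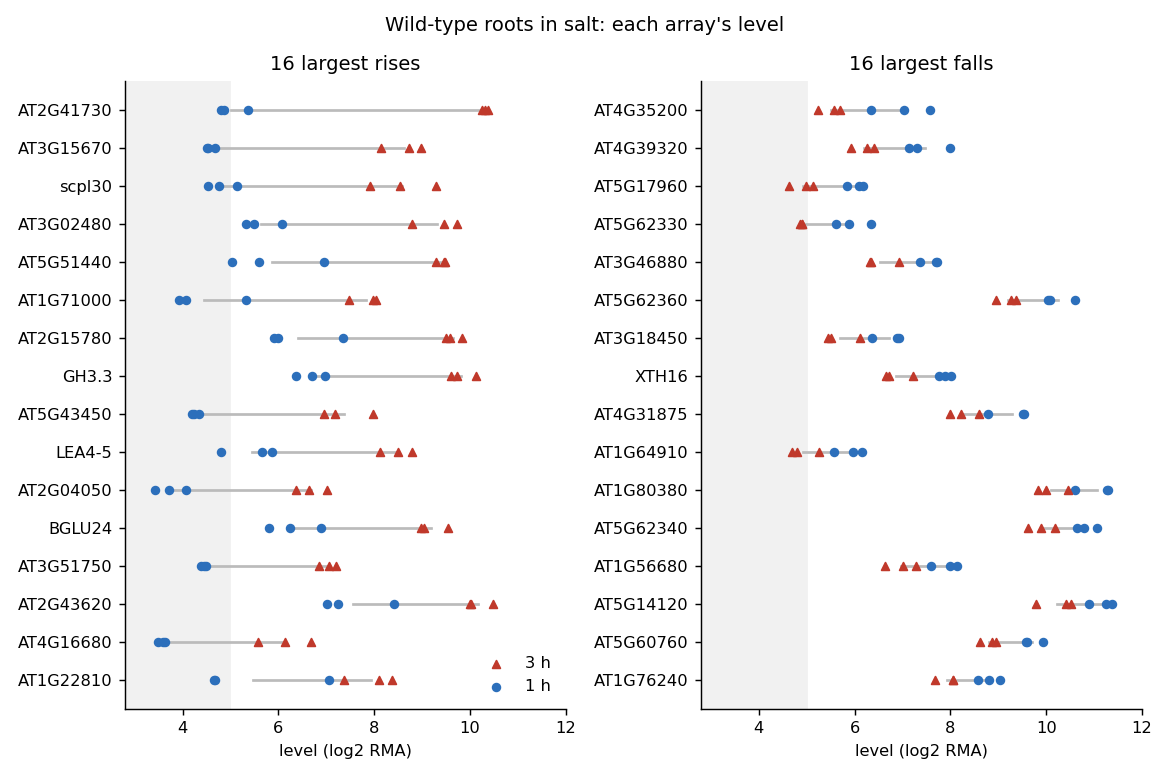
Level (log2 RMA) of the 16 genes with the largest rises and the 16 with the largest falls between 1 h and 3 h, with 1 point per array (red triangles, 3 h; blue circles, 1 h), a grey line joining the group means, and shading for levels under 5. The 3 arrays of 3 h do not overlap those of 1 h in any of these genes, which the choice of genes required; the rises reach 5.30 and the falls -1.48 log2 units.

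A few auxin genes rose. Of 16 measured genes for Aux/IAA repressors, GH3 conjugating enzymes and YUCCA synthesis enzymes, 4 were called higher and 0 lower, and the same 4 calls were made without each of the 6 arrays. The list's median difference was 0.19. GH3.3, which joins auxin to amino acids, had 10.12, 9.73 and 9.60 at 3 h, against 6.37, 6.71 and 6.98 at 1 h, a rise of 3.13 ± 0.191, or 8.74-fold (limma, adjusted p = 4.2e-09). WES1, another enzyme of the GH3 family, rose by 0.57 ± 0.121. IAA30, a repressor of the Aux/IAA family, had 8.54, 8.15 and 8.01 at 3 h, against 6.47, 6.29 and 6.43 at 1 h, and rose by 1.84 ± 0.193. YUC4, which makes auxin, had 6.63, 6.14 and 6.07 at 3 h, against 4.93, 5.44 and 4.89 at 1 h, and rose by 1.20 ± 0.217. The 3 h and 1 h arrays did not overlap in any of these 4, which for GH3.3 its choice among the largest rises required. The same held for 99.0% of all probe sets called higher and for 28.0% of all tested, so it adds little to the calls. The other GH3 genes in the list, GH3.1, GH3.9 and GH3.17, differed by 0.30, -0.21 and 0.08 and were not called.

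Of 15 measured genes for LEA proteins, dehydrins and cold-regulated proteins, 6 were called higher and 0 lower, 9 were not called, and the differences lay between -0.15 and 4.05 with a median of 0.51. Besides AT3G15670 and AT3G02480, LEA4-5 had 8.50, 8.79 and 8.13 at 3 h, against 5.66, 4.80 and 5.86 at 1 h, an 8.15-fold rise (limma, adjusted p = 7.52e-05). The dehydrins LTI30 and COR47 were already high at 1 h and differed less. LTI30 had 13.50, 13.51 and 13.45 at 3 h, against 12.84, 12.78 and 13.09 at 1 h, and COR47 rose by 0.51. These dehydrins and COR15A, which protects chloroplast membranes, lost their calls when single arrays were left out. The count for the list was 3 without the first or second array at 1 h or the second at 3 h, 5 without the first at 3 h, and 6 without the third of either group. Without those arrays LTI30 differed by 0.52 to 0.58, COR47 by 0.41 to 0.51 and COR15A by 1.08 to 1.18. LEA18 differed by 1.14 with an adjusted p of 0.0509 in limma and was not called. 6 of the 15 genes lay close to background.

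Heat shock proteins and factors counted 4 higher and 0 lower of 6 measured, and all 6 differences were positive, 0.71 to 3.55. Beside AT5G51440, the co-chaperone AT5G48570, of the FKBP type, had 7.93, 8.38 and 7.38 at 3 h, against 5.97, 5.92 and 7.06 at 1 h. Hsp70-2, of the Hsp70 chaperone family, rose by 0.74 ± 0.161, with 8.72, 8.82 and 8.79 at 3 h, against 7.89, 7.90 and 8.33 at 1 h. The groups did not overlap in AT5G48570 and Hsp70-2, as in 99.0% of all probe sets called higher. ATHSP22.0 overlapped between the groups, and its rise of 0.73 lost its call without the first or second array of either group (0.51 to 0.71). The AP2/ERF family had 2 of 6 genes higher. After AT1G22810 these were AT4G28140, by 0.74, a call lost without the first or the third 1 h array or the first or second 3 h array (0.51 to 0.78).

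Several families of metabolic enzymes had higher members. Of 22 beta-glucosidases, 4 were called higher and 0 lower, with a median of 0.08. BGLU40 had 6.36, 6.29 and 6.38 at 3 h, against 4.39, 4.41 and 4.65 at 1 h, a rise of 1.86 ± 0.146 (limma, adjusted p = 1.03e-07), again from a 1 h mean close to background. BGLU24 had 9.55, 9.03 and 8.98 at 3 h, against 6.24, 5.80 and 6.88 at 1 h, and rose by 2.88. BGLU25 rose by 0.97 ± 0.103. PYK10, the main beta-glucosidase of the endoplasmic reticulum bodies of roots, differed by 0.45, a call lost without the first or second array of either group (0.38 to 0.46).

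Of 65 glycosyltransferases and glutathione S-transferases, 7 were higher (10.8%) and 4 lower (6.15%), against 4.36% and 4.01% of all probe sets. The list's median difference was 0.06. UGT87A2 rose by 1.58 ± 0.226. UGT76B1, which glycosylates small defence signals, had 9.05, 8.31 and 8.86 at 3 h, against 7.45, 7.67 and 7.45 at 1 h. UGT72E2, which glucosylates lignin precursors, rose by 0.84, and the glutathione transferases GSTU25 and GSTU22 rose by 1.45 and 1.43. GSTU28, of the same family as both, fell by 0.76. The 4 lower calls of the list were 1 without the first 3 h array or the first or second 1 h array, and 2 without the second 3 h array.

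Single members of other lists rose with no array needed for the call. NDB2, an outer alternative NAD(P)H dehydrogenase of the mitochondrial inner membrane, had 10.49, 10.48 and 10.16 at 3 h, against 8.49, 8.12 and 8.78 at 1 h. Its rise was 1.91 ± 0.198, or 3.76-fold (limma, adjusted p = 3.28e-06). Its relative NDB1 was called lower by 0.31, a call that was lost without any array but the third at 1 h (-0.35 to -0.21). The class III peroxidases AT5G64120 and AT5G66390 were the 2 higher genes of 10, by 1.90 ± 0.258 and 0.88 ± 0.114. AT5G64120 had 7.12, 7.80 and 6.81 at 3 h, against 4.91, 4.94 and 6.17 at 1 h. AT1G59740, a carrier of the nitrate and peptide transporter family, was the only gene called of 12 in nitrogen transport and assimilation, with 9.90, 9.81 and 9.55 at 3 h, against 8.02, 8.02 and 8.61 at 1 h. GH9B8, an endoglucanase of glycosyl hydrolase family 9, rose by 1.11 ± 0.173. Of 52 wall enzymes, GH9B8 among them, 2 were higher (3.85%) and 1 lower (1.92%). Both lay under the shares of all probe sets, 4.36% and 4.01%. The other higher one, the pectin methylesterase gene PME61, differed by 0.30 and lost its call without any array but the first at 3 h (0.22 to 0.35). It was also not called with the replicate block, after quantile normalization or with an intensity trend. The lower one, TBL39, lost its call without the first 3 h array (-0.38).

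The falls were smaller, and many began from well-measured levels. AT4G35200, a gene of the plant DUF241 family, had 5.24, 5.56 and 5.69 at 3 h, against 7.57, 7.03 and 6.34 at 1 h, a difference of -1.48 ± 0.266 (limma, adjusted p = 0.00124). AT1G76240, of the same protein family, differed by -0.88 ± 0.191. The largest falls included genes of the pectin methylesterase inhibitor family, which was not counted as a list of its own. AT5G62360 had 9.26, 9.37 and 8.96 at 3 h, against 10.04, 10.07 and 10.60 at 1 h. AT5G62340 had 9.61, 9.89 and 10.18 at 3 h, against 11.07, 10.79 and 10.65 at 1 h. The differences were -1.04 ± 0.171 and -0.95 ± 0.139. XTH16, which cuts and rejoins xyloglucan in the cell wall, had 6.72, 6.66 and 7.22 at 3 h, against 8.01, 7.89 and 7.76 at 1 h, and differed by -1.02 ± 0.178. It was the only lower gene of 10 of its family, in which XTH20 and EXGT-A3 were higher by 0.51 and 0.28 and lost their calls without the first 3 h array (0.41 and 0.28), among others.

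AT1G80380, the glycerate kinase of photorespiration, had 10.00, 9.82 and 10.45 at 3 h, against 10.61, 11.28 and 11.27 at 1 h, a difference of -0.96 ± 0.17. AT5G14120, a membrane carrier of the nodulin-like type, had 10.41, 9.78 and 10.51 at 3 h, against 10.90, 11.37 and 11.24 at 1 h, a difference of -0.93 ± 0.201. The chitinase family gene AT1G56680 differed by -0.94 and lost its call without the first 3 h array (-0.76). AT3G18450, a PLAC8 family gene, differed by -1.04 and lost its call without the second or the third array of either group (-0.96 to -0.92). The remaining genes of the 16 were AT4G39320, AT5G17960, AT5G62330, AT3G46880, AT4G31875, AT1G64910 and AT5G60760, between -1.28 and -0.88. In the fit of the 6 compared arrays alone AT4G31875 and AT1G80380 had adjusted p of 0.0506 and 0.0528 in limma. Of the 16 falls, 12 were called under each of the 13 alternative settings. The larger falls among probe sets without a gene name were 263549_at, by 1.96, and 252367_at, by 1.23.

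A minority of the genes of DNA replication and division were called, all of them lower and by small amounts. Of 10 replication and histone genes, 0 were higher, 4 lower and 6 not called, with a median of -0.32 and all 10 differences negative. The called members were the H2B histones HTB11 and HTB1, POLA3 of the DNA polymerase alpha and primase complex, and PRL, a subunit of the replicative helicase, with differences of -0.37 to -0.34. PRL had 7.66, 7.74 and 7.78 at 3 h, against 8.28, 8.08 and 7.82 at 1 h. None of these 4 calls was made without the first or second array at 1 h or the first or second at 3 h, 1 was made without the third at 3 h, and 5 genes of the list were called without the third at 1 h. When arrays were centred on their medians, HTB1 and PRL had adjusted p of 0.0583 and 0.0526 in limma and were not called. H2B genes are close copies of each other, and probe sets may read more than 1 of them.

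Of 11 cell cycle genes, 0 were higher and 2 lower, with a median of -0.26. AUR1, an Aurora kinase of mitosis, had 7.59, 7.41 and 7.56 at 3 h, against 7.99, 8.07 and 7.90 at 1 h, and was called without each of the 6 arrays (-0.47 ± 0.104 with all). The spindle checkpoint gene BUB3.1 differed by -0.39 and lost its call without the first array of either group (-0.34 and -0.32). Of 9 tubulins and actins 2 were lower. TUB5, a beta-tubulin, had 9.38, 9.28 and 9.45 at 3 h, against 10.02, 9.94 and 9.79 at 1 h, a difference of -0.55 ± 0.109 (limma, adjusted p = 0.0029). TUB1 differed by -0.50 and lost its call without the first or second array of either group (-0.54 to -0.40).

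Calls among genes for sugar transport and for bZIP factors went both ways. Of 21 genes for sugar carriers and sugar enzymes, 1 was higher (4.76%) and 3 lower (14.3%), against 4.36% and 4.01% of all probe sets. The 1 higher call was near the share over all probe sets. TMT1, which loads sugar into the vacuole, had 9.22, 9.03 and 9.16 at 3 h, against 9.72, 9.74 and 9.61 at 1 h, a difference of -0.56 ± 0.107, and kept its call without each array. Of the sugar transporters of the SWEET family, SWEET2 and SWEET16 differed by -0.61 and -0.56 and SWEET14 by 0.55. SWEET2 lost its call without the second 3 h array or the second or the third 1 h array (-0.52 to -0.49). SWEET16 lost it without those and the third 3 h array (-0.57 to -0.41), and SWEET14 without the second 3 h or the first 1 h array (0.45 and 0.47). Of 23 bZIP factors, 1 was higher (4.35%), again near the share over all probe sets, and 3 lower (13.0%). BZIP61 had 7.86, 8.08 and 8.01 at 3 h, against 8.79, 8.53 and 8.47 at 1 h, a difference of -0.61 ± 0.124, and bZIP48 rose by 0.74 at levels close to background. The other lower calls, FD and AT2G40620, differed by -0.57 and -0.42. FD lost its call without the first or second 1 h array or the second or the third 3 h array (-0.61 to -0.37), and AT2G40620 without the first array of either group (-0.40 and -0.35), so that 1 lower call was left without the first 1 h array. DPE1, an enzyme of starch breakdown, had 7.27, 7.31 and 7.35 at 3 h, against 7.78, 7.76 and 7.77 at 1 h. It was the only gene called of 6 in raffinose and starch metabolism, and the limma adjusted p was 0.00207.

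Other calls were of single genes and rested on single arrays. CML30 and CML43, of 9 calmodulin-like calcium sensors, differed by -0.48 and -0.36, and PRH75, of 7 ribosome biogenesis genes, by -0.35. CYP71B26, of 22 cytochrome P450 enzymes, rose by 0.88, and HCT, of 4 lignin and suberin genes, by 0.35. Without the first 3 h array all 5 lost their calls, at -0.33, -0.34, -0.26, 0.68 and 0.23 in the same order, and each lost it without other arrays as well. The 1 higher call among the P450 enzymes (4.55%) was near the 4.36% of all probe sets. Of 3 root hair genes, SCN1, EXPA7 and EXPA18, 1 was called lower, and the differences lay between -0.65 and -0.12. This was SCN1, which lost its call without the second or the third 1 h array or the second 3 h array (-0.25 to -0.21). Among the lists without a call were 18 expansins, with differences of -0.65 to 0.99, 7 WRKY and 7 bHLH factors, 6 cytokinin genes, 6 sodium, potassium, proton and chloride transporters, 7 iron and metal genes and 15 genes of mitochondrial metabolism. At an unadjusted p under 0.05 limma gave 3 of the expansins, 2 WRKY, 2 bHLH, 1 cytokinin and 2 mitochondrial genes, and 0 of the ion and metal genes. Over all 22746 probe sets 4928 passed that threshold. No list was tested as a set, and such small counts do not decide whether a list changed. Without the third 1 h array, 1 WRKY factor and 1 expansin were called higher. For the ion transporters the differences lay between -0.16 and -0.02. Of 10 nuclear photosynthesis genes, markers of green shoot tissue, 1 was higher, PSAE-1, at 4.43, 4.73 and 4.28 at 3 h, against 3.97, 3.80 and 4.01 at 1 h, all close to background. Its rise of 0.55 lost its call without any array but the third at 3 h (0.43 to 0.59). The log2 of their summed signal was 8.84 to 9.26 at 3 h and 8.86 to 8.98 at 1 h, with the highest value on the second 3 h array. The largest difference of the list was that of RCA, which activates the carbon-fixing enzyme rubisco, with 6.08, 7.15 and 6.18 at 3 h, against 5.68, 5.81 and 5.98 at 1 h. These groups did not overlap, and the difference of 0.65 was not called with all arrays (limma, adjusted p = 0.0801), was called with array weights or without the first 3 h array (0.61 and 0.84), and was 0.31 without the second 3 h array. PSBW, of photosystem II, had means of 5.49 at 3 h and 5.18 at 1 h and was not called. SBPASE and PRK, of the carbon fixation cycle, were close to background, with means of 3.58 and 4.04 at 3 h and of 3.55 and 4.01 at 1 h. Other members lay above it. LHCB4.1 had the highest means of the list, 7.56 at 3 h and 7.60 at 1 h. PSAN and LHCB4.2 had means of 5.62 and 5.67 at 3 h and of 5.80 and 5.78 at 1 h. The part of shoot RNA in the result was not tested.

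**Figure D2:**
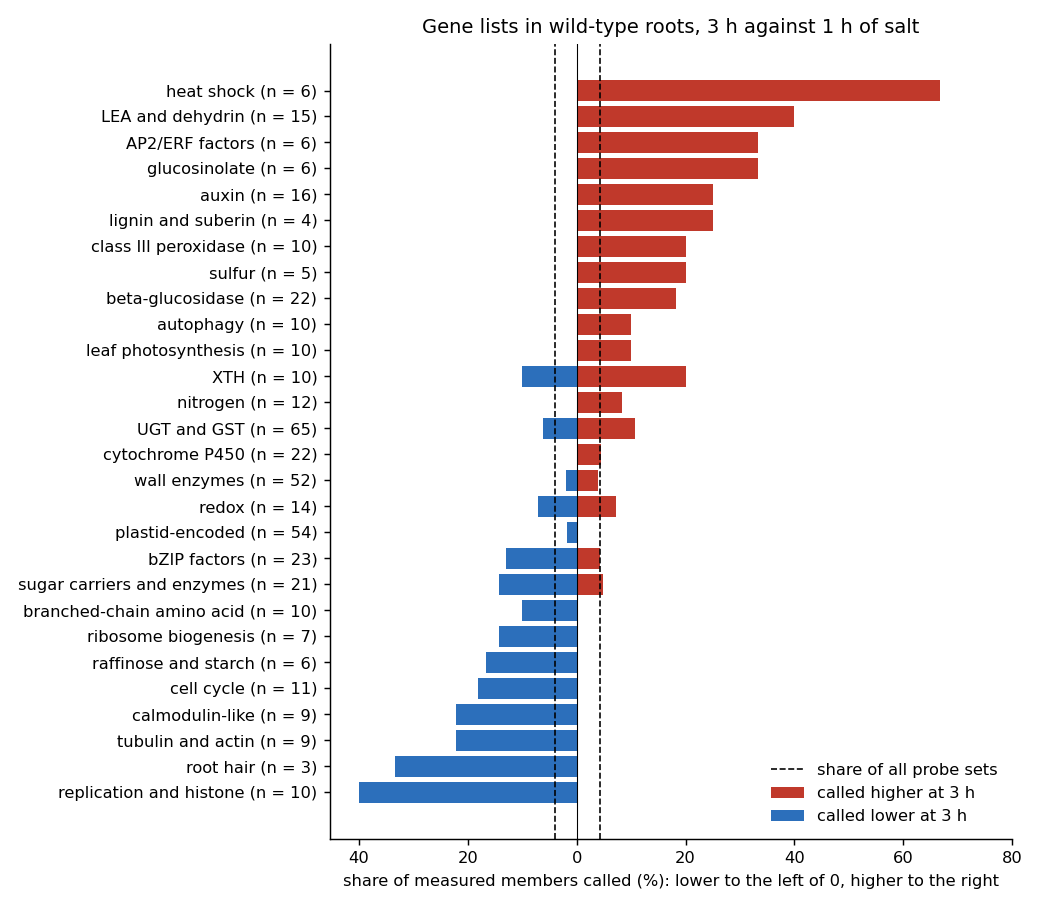
Share of the measured members of each gene list called lower (blue, left of 0) or higher (red, right of 0) at 3 h against 1 h in wild-type roots, for the lists with at least 1 call. Dashed lines mark the shares of all probe sets called, 4.36% higher and 4.01% lower; the heat shock and LEA lists lie at the top and the replication and histone list, with 4 of 10 genes lower, at the bottom.

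Most of the calls also stood apart after 6 h. This comparison was of wild-type roots at 6 h against untreated roots, and was added with the results known. Its group means use none of the 6 arrays of 3 h and 1 h. The estimate of spread is shared with those arrays, so the calls at 6 h are not independent of those between 1 h and 3 h. The 6 h comparison called 16.4% of probe sets higher and 31.1% lower. Of the 992 probe sets higher at 3 h than at 1 h, 889 were called higher, 22 lower and 81 not called. Of the 911 lower ones, 836 were called lower, 1 higher and 74 not called. That last group's single riser was 258599_at, a probe set without a gene name here, named because of this count.

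The time courses showed several shapes. AT2G41730 averaged 4.44 ± 0.298 in untreated roots, 5.01 ± 0.314 at 1 h, 10.31 ± 0.0671 at 3 h and 12.25 ± 0.159 at 6 h (SD, n = 3 each). GH3.3 had means of 4.58, 6.69, 9.82 and 11.31 in that order of times, and NDB2 had means of 7.58, 8.46, 10.38 and 11.42. YUC4 had means of 3.75, 5.08, 6.28 and 4.91, so that its 3 h mean was the highest of the 4. Among the falls, XTH16 had means of 8.27, 7.89, 6.87 and 6.15, lower at each later time. AT4G35200 had means of 5.37, 6.98, 5.50 and 4.02, with 1 h the highest, and AT4G39320 had 6.28, 7.47, 6.20 and 4.99. SWEET2 had 7.76, 7.36, 6.75 and 7.89, and its 3 h mean was the lowest. The steps between neighbouring times other than 1 h and 3 h are given here as means, with no test.

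**Figure D3:**
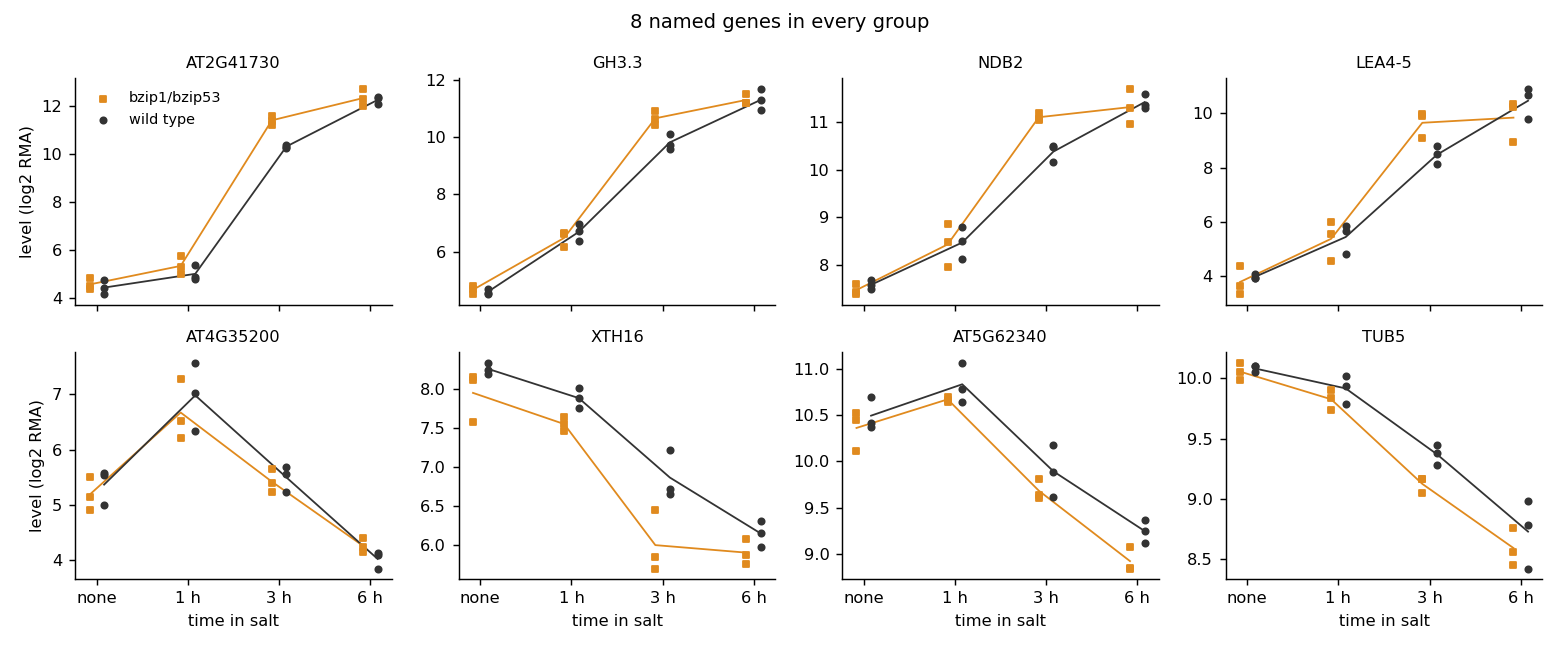
Level (log2 RMA) of 8 named genes in untreated roots and after 1 h, 3 h and 6 h in salt, with 1 point per array and lines through the means, for the double mutant (orange squares) and the wild type (black circles). In wild-type roots AT2G41730 averaged 10.31 at 3 h and 5.01 at 1 h, and AT4G35200 had its highest mean, 6.98, at 1 h.

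The same step was measured in bzip1/bzip53 roots, on arrays of their own but with the estimate of spread shared with the wild type. BZIP53, which the mutant is named for, had 8.90, 8.83 and 8.86 at 3 h and 8.74, 8.67 and 8.82 at 1 h in the mutant, against 11.01, 11.12 and 10.87 at 3 h and 10.93, 11.00 and 11.11 at 1 h in the wild type, so that every mutant array was lower and some signal remained. The position of its probes relative to the lesion is not known here, and bZIP1 was not analysed. There limma called 7066 probe sets (31.1%), of which 2635 were higher (11.6%) and 4431 lower (19.5%). Of the wild type's 992 higher probe sets, 846 were called higher in the mutant, which is 85.3% of them and 32.1% of the mutant's higher calls. Of its 911 lower ones, 719 were called lower, which is 78.9% of them and 16.2% of the mutant's. Across all probe sets the changes of both genotypes correlated at r = 0.778, as a description over probe sets of the same arrays. Over the wild type's higher probe sets the median change was 0.87 in the mutant and 0.74 in the wild type, and over its lower ones -0.46 and -0.44.

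The genotypes' changes were tested against each other as mutant minus wild type, and 86 probe sets were called (0.378%). None of the 32 genes with the largest rises and falls was among the genes called, so a larger or smaller change in the mutant was not shown for them: AT2G41730 rose by 6.06 in the mutant and 5.30 in the wild type (limma, adjusted p of the difference 0.239). GH3.3 rose by 4.18 in the mutant and 3.13 in the wild type, with an adjusted p of 0.082. 4 probe sets went in opposite directions, lower in the mutant and higher in the wild type, and were named because of this count. They were AT4G02630, AT4G00670, AT1G21220 and 262905_at, with changes of -0.57 to -0.29 in the mutant and of 0.33 to 0.57 in the wild type. UGT73C7, a glycosyltransferase gene of the list above, rose by 2.08 in the mutant and 0.98 in the wild type, with an adjusted p of the difference of 0.0493 in limma. Without single arrays the 86 calls became 3 to 220, and they became 3 without the first array of either genotype at either time or the second array of the mutant at 1 h.

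**Figure D4:**
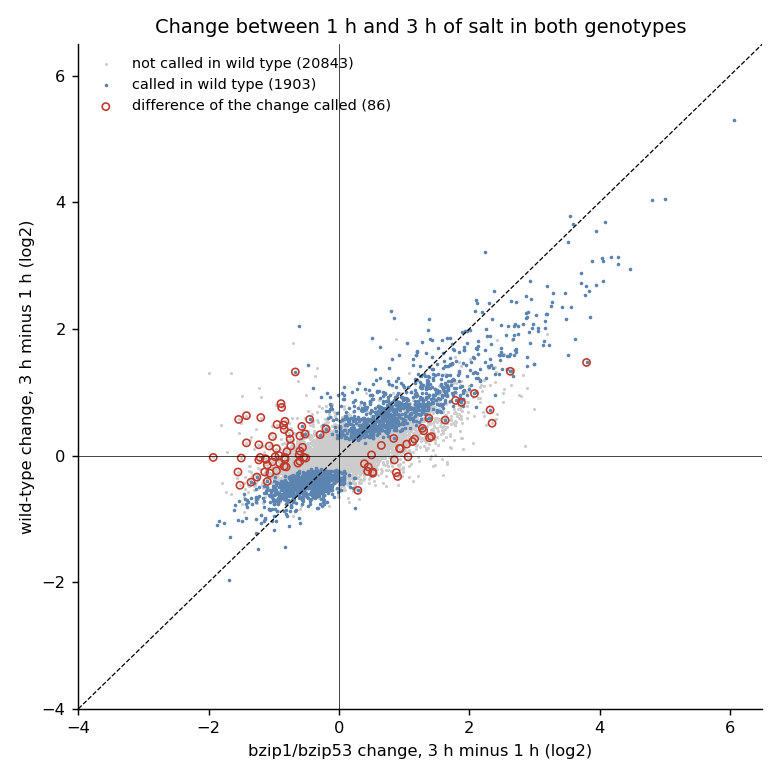
Change of every probe set between 1 h and 3 h of salt (3 h minus 1 h, log2), in the mutant on the horizontal axis and in the wild type on the vertical axis, with blue for the 1903 wild-type calls, red rings for the 86 calls of the difference and a dashed line of equality. Most blue points lie along the line, and most rings lie where the wild-type change was near 0.

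Of 16 genes of the low-oxygen response, which plant cells switch on when respiration is short of oxygen, 11 were called in the mutant and 0 in the wild type. Over all probe sets 31.1% were called in the mutant and 8.37% in the wild type, so these counts alone do not compare the genotypes. In wild-type roots 0 of 16 were called in limma at an adjusted p under 0.05, also without each of the 6 arrays, and 3 had an unadjusted p under 0.05, all of them higher at 3 h. Over all 22746 probe sets 4928 had an unadjusted p under 0.05 in the wild type. The median difference was 0.45, with 15 of the 16 above 0. AT3G29970 had 8.04, 7.20 and 6.22 at 3 h, against 5.51, 6.04 and 5.98 at 1 h, which did not overlap, and its difference of 1.31 ± 0.514 had an adjusted p of 0.129. The 3 h arrays of this gene lay far apart. AT5G10040 had 10.06, 9.72 and 8.71 at 3 h, against 7.75, 8.90 and 8.65 at 1 h, and its groups overlapped. In the mutant 11 of the 16 were called lower and 0 higher, with a median of -0.90, against 19.5% lower and 11.6% higher of all probe sets. The difference had an unadjusted p under 0.05 for 11 genes and was called for 2, AT3G03270, of the universal stress protein family, and AT4G33560. AT3G03270 had a change of -0.95 in the mutant and 0.49 in the wild type, and AT4G33560 of -1.42 and 0.63, each with an adjusted p of 0.0493 in limma. In untreated roots their means were already 10.73 and 7.36 in the mutant, against 10.05 and 6.84 in the wild type. AT2G15880 of the same list went the other way, with 5.44 in the mutant and 6.12 in the wild type. These untreated differences were not tested. The count of 2 was 5 with the replicate block and 7 with array weights, 1 with the compared arrays alone, and 0 after quantile normalization or with an intensity trend and robust prior. Both calls were lost when any array but the third at 1 h in the mutant or the third at 3 h in the wild type was left out. The second mutant array at 1 h was high in AT4G33560, at 9.11 against 7.75 and 7.78, and without it 5 of the 16 genes were called lower in the mutant.

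**Figure D5:**
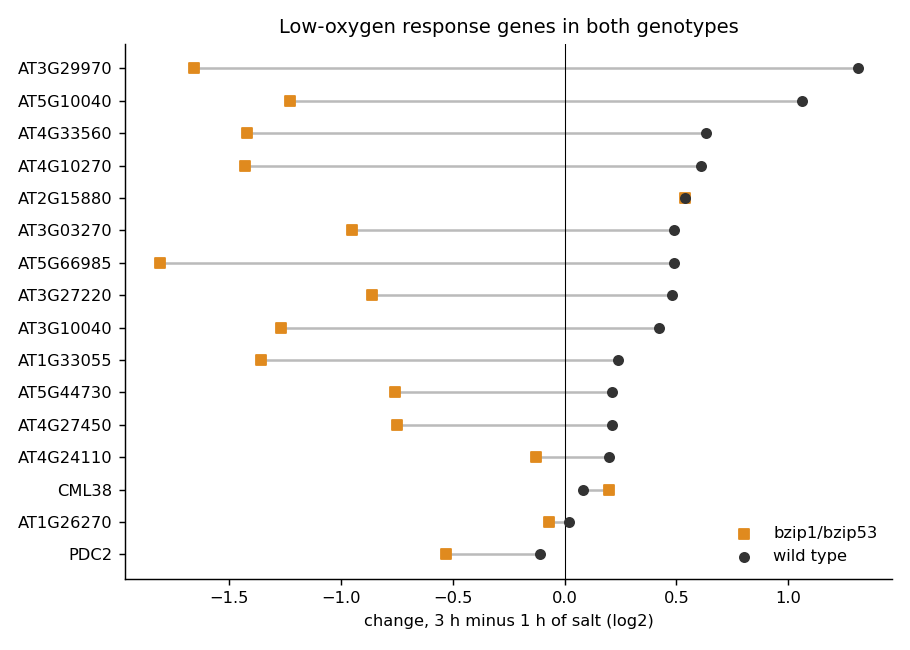
Change of 16 low-oxygen response genes between 1 h and 3 h of salt (3 h minus 1 h, log2), in the mutant (orange squares) and the wild type (black circles). In the mutant 11 were called lower, against 19.5% of all probe sets. In the wild type 15 of 16 lie above 0 and none was called, against 8.37% of all probe sets.

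Of 54 genes of the plastid genome 25 were called lower in the mutant, with a median of -0.48, and 1, psbB, in the wild type, with a median of -0.19. Over all probe sets 19.5% were called lower in the mutant and 4.01% in the wild type. The difference of the changes was called for 0 of them in limma, with 7 at an unadjusted p under 0.05. psbB had 4.38, 4.43 and 4.48 at 3 h, against 4.81, 4.78 and 4.85 at 1 h, close to background, and lost its call without any array but the third at 3 h (-0.40 to -0.36).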

How the data were processed

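Root RNA was read on 24 Affymetrix ATH1 arrays, 3 in each of 8 groups. The deposited values are log2 levels made by the authors with RMA, which corrects background, normalizes between arrays and summarizes the probes of each set. The submitters' processing notes also name affy, limma and the TAIR9 annotation, with no settings given in the sources used here. Of 22810 probe sets, 64 manufacturer's controls were left out and 22746 tested. A gene was named only where the platform's gene table gives a single symbol (13513 probe sets, against 503 with several and 8730 with none), and 13436 of these matched the RefSeq gene table.

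From these values, group means of all 24 arrays were fitted with limma 3.58.1 in R 4.3.3 (lmFit and eBayes, 16 residual degrees of freedom), so that the groups share 1 estimate of spread. P-values were adjusted over all probe sets after Benjamini and Hochberg and called under 0.05; the fit was tested on simulated data. The same fit gave the mutant's change, its difference from the wild type's, and 6 h against control. Errors are the fit's SE or the SD of 3 arrays, and the number of arrays limits the precision. Named genes were the 16 largest rises and 16 largest falls with no overlap of arrays, up to 6 genes of smallest p in each of 42 gene lists with at least 3 measured members, the 8 of smallest p for the genotypes' difference, and 4 unnamed probe sets. Genes shown as members of a list beyond those, and those named beside a small count, were chosen after their values were seen. The lists and rules were chosen with earlier results of these data known. Alternatives were other fits, filters, thresholds and scalings and leaving out each array.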

Additional observations from a re-analysis of the deposited data

Results flagged for a closer look

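The 8 genes given here had the smallest p in limma's test of the difference between the genotypes' changes from 1 h to 3 h. They were chosen by that p, so that their place among the 86 calls followed from the choice. In AT5G14230 the mutant's change exceeded the wild type's by 1.08 log2 units (adjusted p = 0.00551). Its level was 9.17, 8.90 and 9.04 at 3 h and 7.97, 7.95 and 8.02 at 1 h in the mutant, against 7.96, 7.97 and 8.05 at 3 h and 8.01, 8.00 and 8.03 at 1 h in the wild type, where the times overlapped. AT2G26690, a carrier of the nitrate and peptide transporter family, differed by 1.12 (adjusted p = 0.00551 in limma), with means of 8.19 and 6.76 at 3 h and 1 h in the mutant, against 7.08 and 6.78 in the wild type. These were the genes of the 8 that kept their call under every alternative.

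AT4G36790 and AT5G05880 differed by 0.78 and 0.70, higher at 3 h in the mutant and not called in the wild type (adjusted p = 0.0333 and 0.0337 in limma). AT3G45160, AT4G02630, AT3G11930 and AT2G43535 differed by -1.19, -0.86, -1.33 and -0.96, with adjusted p of 0.022, 0.0322, 0.0328 and 0.0362 in limma. AT3G11930, of the universal stress protein family, changed by -0.85 in the mutant and by 0.48 in the wild type. Each of these 6 lost its call without some single arrays, among them the first array of every group at 1 h and 3 h.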

How the results depend on the processing

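The wild-type count of 1903 called probe sets ranged from 927 to 2221 when single arrays were left out, and was 1217 with the 6 compared arrays alone, 3497 with array weights, 852 at an adjusted p under 0.01 and 315 with a fold of at least 2. The mutant's 7066 ranged from 4878 to 7053 without single arrays and was 4577 at an adjusted p under 0.01 and 992 with a fold of at least 2. The 86 calls of the difference ranged from 3 to 220 without single arrays and were 1252 with array weights, 157 with dim probe sets left out, 160 with the compared arrays alone, 57 after quantile normalization, 3 at an adjusted p under 0.01 and 39 with a fold of at least 2. The causes were not tested, beyond the fewer arrays or stricter thresholds themselves. With the replicate number as a block the counts were 1913, 7089 and 108. Deviations of same-numbered arrays from their group means correlated at -0.06, -0.56 and -0.14 between wild type 3 h and 1 h, at 0.18, 0.70 and 0.72 between mutant and wild type at 1 h, and at 0.11, 0.26 and -0.15 between them at 3 h, so the numbers may be shared at 1 h and were not taken to pair the arrays across the times. Median centring, an intensity trend and, for the changes of each genotype, the dim filter and quantile normalization kept the counts within 1.5 times. The alternatives were also run for 57 other called genes among the up to 6 of smallest p in each list. None of the 16 rises, the 16 falls, these 57 genes and the 8 genes of smallest p for the difference changed direction under the alternatives run for them. Of the 57, 24 kept their call under every alternative. Called list members beyond the 6 of a list are not in this count. Depth is not known for arrays: a level under 5 lies near the bacterial controls, where the size of a fold is uncertain. No search for promoter motifs was run, since no promoter sequence was used here.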
